A study of Mus musculus with 6 samples.

Results

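Imprinted genes are transcribed mainly from the chromosome inherited from 1 parent, under the control of DNA methylation laid down in the germ line. Many of them set the growth of the embryo and placenta: as background, paternally expressed genes tend to promote growth and maternally expressed genes tend to restrain it. Most are turned down in the lung after birth and can be switched on again in tumours. The 10 genes described here were picked by symbol; their values were not part of the rule, but earlier results of these data were known when the list was made. They are the ligand IGF2 with its noncoding neighbour H19, the clearance receptor IGF2R, the receptor adaptor GRB10, the transcription factor PLAGL1, DLK1 with its noncoding neighbour MEG3, the zinc finger protein PEG3, the retrotransposon-derived PEG10 and the hydrolase-fold protein MEST. All 10 had a row among the 46937 symbols of the count table, and all 10 were among the 21201 genes that passed the filter on low counts.

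The RNA came from 6 lung squamous cell carcinoma biopsies of mice, with 3 libraries in each of 2 groups, to compare tumours with and without a mutant NSD3. PSCN tumours carried constitutively active PI3K (Pik3caH1047R), overexpressed SOX2 (Sox2OE), lacked CDKN2A and CDKN2B (Cdkn2a/bKO) and expressed the mutant NSD3T1242A of the histone methyltransferase NSD3. PSC tumours, the control, carried the same 3 alterations without the mutant, and their genotype is labelled NSD3 WT. The sources used here do not give age, strain, the promoters behind the alleles or whether the biopsies came from different mice. Each p-value is therefore set against the spread of these libraries, which may be technical in part. Reads from both parental chromosomes were counted together, and imprinting itself was not measured.

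Total counts ran from 70979353 to 72807077 in PSCN and from 69563622 to 72281119 in PSC. NSD3 followed the labels, with 821 to 1932 CPM (counts scaled to a common library size) in PSCN against 79.7 to 102 CPM in PSC. The tumour label was set against squamous markers: KRT5, a keratin of squamous basal cells, reached 3487, 7319 and 2678 CPM in the PSCN libraries, numbered 1 to 3, against 52.1, 575 and 2035 CPM in the PSC libraries. The squamous regulator TP63 was at 195 to 240 CPM in PSCN against 10.4, 80.2 and 195 CPM in PSC libraries 1 to 3. The 10 measured squamous markers summed to 332, 2048 and 7881 CPM in PSC libraries 1 to 3 and to 10322 to 23966 CPM in PSCN. Of the 10, 9 had positive fold changes and 1, DSC3, a negative one, with its lowest level in PSCN library 3 (0.181 CPM). SOX2 was at 131 CPM in PSC library 1, against 144 CPM in PSCN library 2. PSC library 1 therefore held few transcripts of most squamous markers. PSC library 3 lay closer to the PSCN libraries (mean correlation of log2 CPM across genes 0.941) than to its own group (0.908). XIST, transcribed in females, was at 0.890 to 2.40 CPM in PSCN against 1.73, 1088 and 1034 CPM in PSC libraries 1 to 3, and DDX3Y of the Y chromosome was at 54.6 to 84.7 CPM in PSCN and at 62.9, 0.106 and 0 CPM in PSC. PSC library 1 thus came from another animal than PSC libraries 2 and 3, and sex differed within PSC but not within PSCN. A fit with sex as a covariate therefore compares PSCN with PSC library 1 alone. In bulk tissue, fewer cells of a type and less RNA per cell cannot be told apart.

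Promoters are shown for 3 genes on which the description turns. MEG3 had the lowest fold change of the 10, and GRB10 and MEST took their highest level in the same PSCN library. Each run of 300 bases, from 250 bases before to 50 bases after a RefSeq transcription start in GRCm38.p6, is read 5′ to 3′ on the gene's strand, and of the listed starts the one nearest to the principal GENCODE transcript was taken. Capitals mark TGCCGC, the core of the sequence bound by the imprint-protecting factor ZFP57, and the TATA motif TATAAA, each searched on both strands (GCGGCA and TTTATA are the same motifs read on the other strand), with overlapping matches counted separately. MEG3 lies at chr12:109540746-109541045 (plus strand), GRB10 at chr11:12037371-12037670 (minus strand) and MEST at chr6:30737800-30738099 (plus strand).
MEG3 promoter: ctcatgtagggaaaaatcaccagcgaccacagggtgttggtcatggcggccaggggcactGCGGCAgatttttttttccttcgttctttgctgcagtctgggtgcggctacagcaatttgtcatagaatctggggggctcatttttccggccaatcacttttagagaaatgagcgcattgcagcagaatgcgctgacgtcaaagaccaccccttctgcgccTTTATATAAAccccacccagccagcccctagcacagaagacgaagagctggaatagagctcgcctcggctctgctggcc
GRB10 promoter: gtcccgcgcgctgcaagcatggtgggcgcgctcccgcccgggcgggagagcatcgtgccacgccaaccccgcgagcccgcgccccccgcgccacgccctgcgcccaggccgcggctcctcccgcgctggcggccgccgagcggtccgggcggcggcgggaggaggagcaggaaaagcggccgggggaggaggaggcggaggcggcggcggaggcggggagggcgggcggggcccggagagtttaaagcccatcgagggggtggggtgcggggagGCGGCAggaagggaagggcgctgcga
MEST promoter: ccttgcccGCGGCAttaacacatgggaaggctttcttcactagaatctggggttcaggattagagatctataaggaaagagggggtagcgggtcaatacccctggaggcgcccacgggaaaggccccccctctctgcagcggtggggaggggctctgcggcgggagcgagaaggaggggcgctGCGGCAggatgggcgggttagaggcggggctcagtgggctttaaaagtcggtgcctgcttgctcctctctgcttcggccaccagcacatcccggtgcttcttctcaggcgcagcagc

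The MEG3 sequence held 1 TGCCGC match, on the other strand, and 2 overlapping TATAAA matches, 1 on each strand, in the last 30 bases before the start. The GRB10 sequence had 45 CpG dinucleotides, at the 98.1st percentile of the 32851 promoters listed, and 1 TGCCGC match. The MEST sequence had 17 CpG dinucleotides and 2 TGCCGC matches. RefSeq promoters were found for 8 of the 10 genes, and 4 of these 8 sequences (MEG3, PLAGL1, GRB10 and MEST) held TGCCGC, against 11.6% of all listed promoters. Over all 15 listed promoters of the 8 genes, 6 held it. TGCCGC itself contains a CpG, and the 4 sequences had 13 to 45 CpG dinucleotides, against a median of 7 over all listed promoters. TATAAA was found in 1 of the 8, that of MEG3, against 13.6% of all. A match is a stretch of letters and was not tested as a binding site.

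Between PSCN and PSC, none of the 10 genes passed the test. With edgeR's quasi-likelihood test and Benjamini-Hochberg adjustment over all 21201 genes, 0 of 10 had an adjusted p under 0.05 in either direction, where 0.00472% of all genes were called higher in PSCN and 0% lower. At an unadjusted p under 0.05 there was 1 member, MEG3, against 21.6% of all genes tested. DESeq2's Wald test and limma-voom with sample quality weights each called 1 member, MEG3, lower in PSCN, where DESeq2 called 5.26% of all genes higher and 8.63% lower and limma-voom 8.43% higher and 5.84% lower. Without weights limma-voom called 0 members. Of the 10 fold changes 5 were above and 5 below 0, against 49.1% and 50.9% of all genes, with a median log2 fold change of -0.03 against -0.01 over all genes tested. Among the 6 genes expressed from the paternal chromosome 3 were above and 3 below 0, and among the 4 expressed from the maternal chromosome 2 were above and 2 below. In 2 of 10, IGF2R (higher) and MEG3 (lower), the libraries of the 2 groups did not overlap, against 28.6% of all genes tested.

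**Figure D1:**
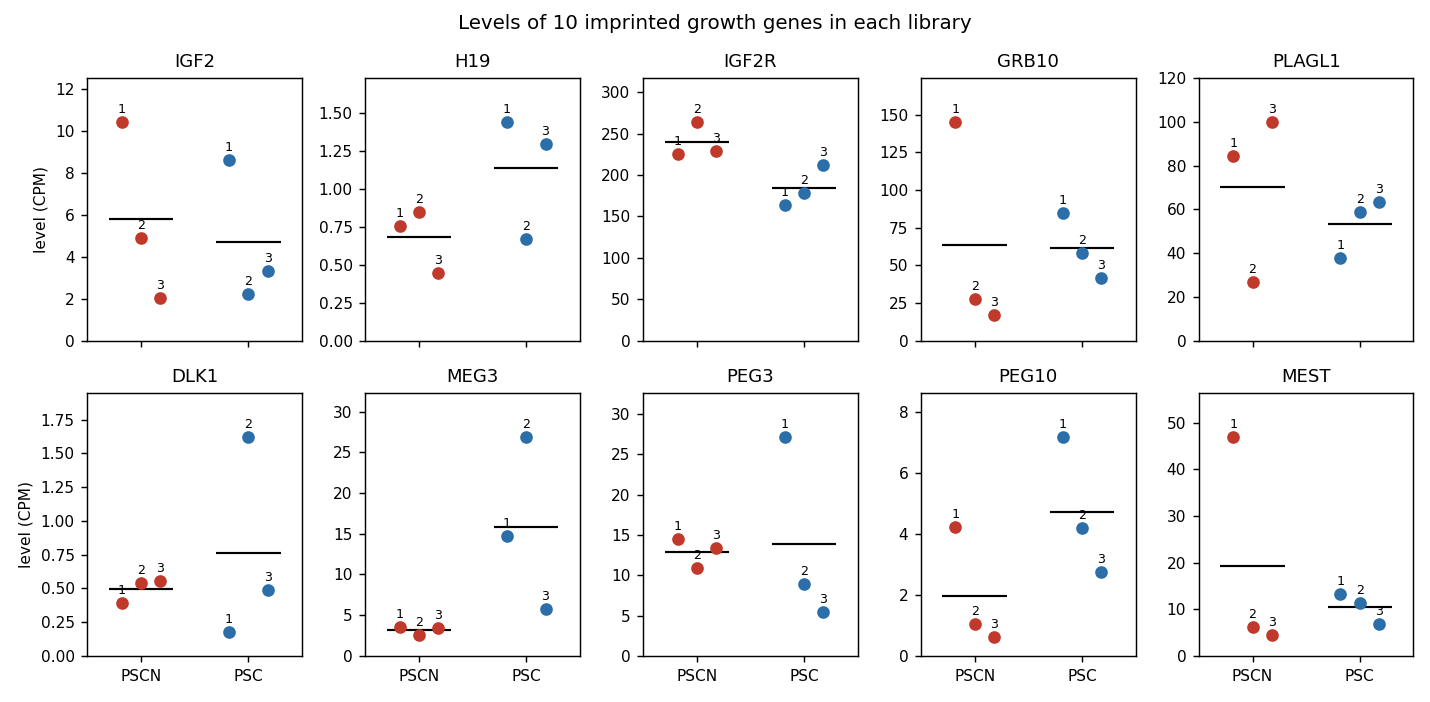
Level of each gene in CPM (counts over library sizes adjusted by TMM) in the 3 PSCN libraries (red) and the 3 PSC libraries (blue), numbered by replicate, with the group mean as a line. MEG3 is lower and IGF2R higher in all PSCN libraries than in all PSC libraries, while GRB10 and MEST reach 145 and 47.0 CPM in PSCN library 1 alone.

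Per length, IGF2R was the most abundant of the 10 and DLK1 the least. Expressed per length of merged exons and per library size (RPKM), IGF2R averaged 25.8 ± 2.31 in PSCN and 19.8 ± 2.64 in PSC (SD, n = 3 each). PLAGL1 followed with 9.00 ± 4.94 in PSCN and 6.81 ± 1.76 in PSC, GRB10 with 6.99 ± 7.83 in PSCN and 6.77 ± 2.38 in PSC, and MEST with 4.87 ± 6.09 in PSCN and 2.66 ± 0.837 in PSC. IGF2 and PEG3 averaged 1.01 and 0.969 RPKM in PSCN and 0.827 and 1.04 RPKM in PSC. The mean RPKM of PEG10 was 0.296 in PSCN and 0.706 in PSC, that of H19 0.278 in PSCN and 0.462 in PSC, that of MEG3 0.175 in PSCN and 0.872 in PSC, and that of DLK1 0.0880 in PSCN and 0.135 in PSC. The gaps between IGF2R and the next gene and between DLK1 and the next gene were larger than the SDs of both genes in PSCN and in PSC. No other neighbours in the order were apart by that much in both groups. Exons of all annotated transcripts were merged, 18089 bases for MEG3, so genes with many minor transcripts are understated.

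IGF2, the fetal insulin-like growth factor that signals through IGF1R and INSR, varied more within each group than between them. IGF2 (ENSMUSG00000048583.16, chr7:142650766-142666816 in GRCm38) measured 10.5, 4.90 and 2.04 CPM in PSCN libraries 1 to 3 against 8.62, 2.23 and 3.34 CPM in PSC libraries 1 to 3. The groups overlapped, and library 1 was the highest of each. The log2 fold change was 0.29 (SE 0.75, edgeR adjusted p = 0.832), and -0.44 without PSCN library 1 against 1.06 without PSC library 1. With sex as a covariate, which sets PSCN against PSC library 1 alone, it was -0.57. H19, the growth-restraining noncoding RNA 72.6 kb away that shares enhancers with IGF2 and is transcribed from the other parental chromosome, was low. H19 (ENSMUSG00000000031.16, chr7:142575529-142578143) had 52, 55 and 32 counts in PSCN and 107, 51 and 95 counts in PSC, or 0.446 to 0.850 CPM in PSCN and 0.673 to 1.44 CPM in PSC. PSC library 2 lay among the PSCN libraries, and the log2 fold change was -0.73 (SE 0.45, edgeR adjusted p = 0.366). The antisense transcript IGF2OS had at most 14 counts in any library, and the rows of miR-675, carried by H19, and miR-483, carried by IGF2, had at most 1 and 0 counts.

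IGF2R, which takes IGF2 from the cell surface to lysosomes and also sorts lysosomal enzymes, was the steadiest of the 10. It measured 225, 264 and 230 CPM in PSCN libraries 1 to 3 against 164, 178 and 212 CPM in PSC libraries 1 to 3, and the highest over the lowest library was 1.17 within PSCN and 1.29 within PSC. All PSCN values lay above all PSC values. The log2 fold change was 0.38 (SE 0.16), 1.30-fold, and did not pass (edgeR adjusted p = 0.245; 0.0630 to 0.516 under the 15 alternatives). IGF2R (ENSMUSG00000023830.14) lies on the minus strand at chr17:12682406-12769664 and is overlapped by the antisense noncoding RNA AIRN, which silences the paternal IGF2R in most mouse tissues. AIRN measured 5.98, 8.75 and 6.40 CPM in PSCN libraries 1 to 3 against 11.7, 11.6 and 7.15 CPM in PSC libraries 1 to 3, with a log2 fold change of -0.53 (SE 0.30), and its largest count, 881, was small beside the smallest IGF2R count, 12118. The annotated exons of AIRN and IGF2R do not overlap. The kit kept strand, but the sources used here do not say whether the counting did.

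GRB10, an adaptor that restrains signalling from the insulin and IGF1 receptors, spread widely within PSCN. Its levels were 145, 28.0 and 17.2 CPM in PSCN libraries 1 to 3 and 84.6, 58.3 and 41.7 CPM in PSC libraries 1 to 3. PSCN library 1 lay above every PSC library and the other PSCN libraries lay below every one of them. The log2 fold change was 0.05 (SE 0.82, edgeR adjusted p = 0.978) with all libraries and -1.43 (SE 0.40, edgeR adjusted p = 0.244) without PSCN library 1. GRB10 (ENSMUSG00000020176.17, chr11:11930508-12038683) is followed at 32.4 kb by DDC, an amine-synthesizing decarboxylase imprinted in the embryonic heart. DDC measured 0.540, 0.278 and 0.209 CPM in PSCN and 2.28, 9.54 and 0.858 CPM in PSC, a log2 fold change of -3.62 (SE 1.01, edgeR adjusted p = 0.190). PSCN library 1 was the highest of PSCN for DDC too, but lay below every PSC library.

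MEST, a membrane protein of the endoplasmic reticulum expressed in growing mesoderm and fat, had the same shape. It measured 47.0, 6.29 and 4.42 CPM in PSCN libraries 1 to 3 against 13.3, 11.3 and 6.88 CPM in PSC libraries 1 to 3. PSCN library 1 was 3.52 times the next highest of the 6 libraries, and the other PSCN libraries lay below all PSC libraries. The log2 fold change was 0.87 (SE 0.93, edgeR adjusted p = 0.597), and -0.96 (SE 0.39) without PSCN library 1. MEST (ENSMUSG00000051855.15, chr6:30723547-30748465) shares its 3′ end with COPG2 on the opposite strand, whose counts reached 6316, so part of the MEST count could be COPG2 reads if strand was not used. COPG2, a coat protein of Golgi vesicles, did not peak in PSCN library 1, with 78.6, 91.3 and 86.3 CPM in PSCN libraries 1 to 3 and 55.0, 76.4 and 86.0 CPM in PSC libraries 1 to 3.

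PEG10, which derives from a retrotransposon gag-pol gene and is needed for the placenta, was low in all libraries but highest in its group in library 1. PEG10 (ENSMUSG00000092035.8, chr6:4747306-4760517) measured 4.24, 1.05 and 0.628 CPM in PSCN libraries 1 to 3 against 7.19, 4.20 and 2.74 CPM in PSC libraries 1 to 3. The log2 fold change was -1.25 (SE 0.80, edgeR adjusted p = 0.384) and -2.47 (SE 0.59, edgeR adjusted p = 0.244) without PSCN library 1, when all PSC values lay above the remaining PSCN values. SGCE, a sarcoglycan whose gene starts 98 bases from PEG10 on the opposite strand, showed 19.5, 8.30 and 6.47 CPM in PSCN and 31.6, 26.8 and 6.82 CPM in PSC. Library 1 was thus the highest of its group for SGCE too, and the log2 fold change was -0.93 (SE 0.68). Without PSCN library 1, IGF2R, MEG3, PEG10, GRB10 and MEST, 5 of 10, did not overlap between the groups, against 43.7% of all genes then tested. Leaving out PSCN libraries 2 or 3, or PSC libraries 1, 2 or 3, gave 3, 2, 3, 3 and 2 such members, against 34.2%, 36.5%, 34.4%, 32% and 55.4% of all genes.

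PSCN library 1 differed from the other libraries in its collagen transcripts and several other fibroblast markers. Summed over 11 fibroblast markers it reached 43026 CPM, against 2128 and 1341 CPM in PSCN libraries 2 and 3 and 3021, 1605 and 4283 CPM in PSC libraries 1 to 3. Most of that sum came from the collagen chains COL1A1 and COL1A2, and COL1A2 was at 16833 CPM in PSCN library 1. COL1A1 stood at 19229 CPM in PSCN library 1, at 617 and 324 CPM in PSCN libraries 2 and 3, and between 278 and 1228 CPM in PSC. Of the 11 markers 8 had positive and 3 negative fold changes, and none was at 0 throughout. With edgeR 0 passed, and 0 were higher and 1 lower at an unadjusted p under 0.05, against 9.48% and 12.2% of all genes. COL3A1, PDGFRB, LUM, FAP, POSTN and FBLN1 were also highest in PSCN library 1. LUM was at 290 CPM there, against 51.3 CPM in PSC library 3, the next highest, and FBLN1 at 163 against 140 CPM. The fibroblast genes PDGFRA, THY1 and DPT were not highest in PSCN library 1. DPT, with the smallest p of the list, was at most 22.3 CPM in PSCN, against 24.7 to 66.7 CPM in PSC. IGF2, H19 and DLK1 are known to be active in skeletal muscle. Its markers summed to 0.464 to 1.91 CPM in PSCN and 2.03 to 32.8 CPM in PSC. The 32.8 CPM was that of PSC library 1, where CKM alone reached 31.9 CPM. MYOD1 and MYH8 were at 0 throughout. The part of these cells in the levels of GRB10, MEST, PEG10 and IGF2 was not tested. Across all genes tested, 14.9% took their highest level in PSCN library 1, and among the 10 members 3 did (IGF2, GRB10 and MEST).

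**Figure D2:**
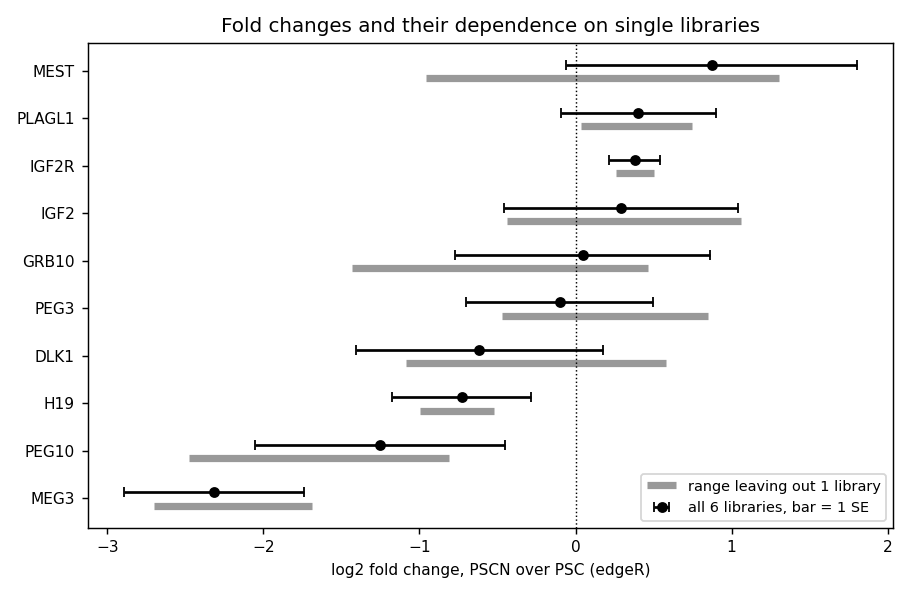
Log2 fold change of PSCN over PSC for each gene from edgeR with all 6 libraries (black, bar 1 SE) and the range when each library is left out in turn (grey). The ranges of MEST, IGF2, GRB10, PEG3 and DLK1 cross 0. Those of MEG3 (-2.70 to -1.69), IGF2R (0.26 to 0.50), H19, PEG10 and PLAGL1 (0.03 to 0.75) do not.

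MEG3 gave the largest difference of the 10. MEG3, a nuclear noncoding RNA with growth-restraining activity that is prominent in endothelium, measured 3.50, 2.55 and 3.45 CPM in PSCN libraries 1 to 3 against 14.7, 26.9 and 5.72 CPM in PSC libraries 1 to 3. All PSCN libraries lay below all PSC libraries, and PSC library 3 was the nearest to PSCN. The group means were 3.17 ± 0.534 CPM in PSCN and 15.8 ± 10.6 CPM in PSC (SD, n = 3 each), a log2 fold change of -2.32 (SE 0.58), or 4.98-fold lower. The difference did not pass (edgeR adjusted p = 0.187), and 751 other genes had a smaller unadjusted p. Under the 15 alternatives the fold change kept its sign and the adjusted p ran from 0.00267 with DESeq2 to 0.438 without PSC library 2. It passed with DESeq2, with limma-voom with quality weights (adjusted p = 0.0424) and with edgeR without PSC library 3 (log2 fold change -2.70, adjusted p = 0.0403), where 3.39% of all genes were called higher and 5.4% lower. The authors' deposited table gives MEG3 a log2 fold change of -2.33 and an adjusted p of 0.00285, and it calls 3.92% of its genes with an adjusted p higher and 8.1% lower.

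The other genes of the Dlk1-Dio3 domain on chromosome 12 were compared with MEG3 (ENSMUSG00000021268.17, chr12:109541001-109571726). DLK1, a membrane protein of the Notch ligand family that holds precursor cells back from differentiation, lies 77.7 kb upstream and is read from the paternal chromosome. DLK1 (ENSMUSG00000040856.17, chr12:109452823-109463336) had 27, 35 and 40 counts in PSCN and 13, 123 and 36 counts in PSC, at most 1.62 CPM, and a log2 fold change of -0.62 (SE 0.79, edgeR adjusted p = 0.661). The groups overlapped, and the log2 fold change was 0.58 without PSC library 2. It was 1.49 with sex as a covariate, which sets PSCN against PSC library 1 alone. RIAN, a maternally expressed host of small nucleolar RNAs 32.2 kb beyond MEG3, measured 2.07, 1.56 and 1.14 CPM in PSCN libraries 1 to 3 against 9.79, 10.2 and 2.66 CPM in PSC libraries 1 to 3. Its log2 fold change was -2.25 (SE 0.58, edgeR adjusted p = 0.187), and like MEG3 it was lower in every PSCN library and lowest of PSC in library 3. The next maternal noncoding RNA, MIRG, differed by -1.14 on the log2 scale (SE 0.56) and DIO3, a thyroid hormone inactivating enzyme, by -2.33 (SE 1.18), with 3.40 CPM in PSC library 1 and at most 0.422 CPM in any other library.

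**Figure D3:**
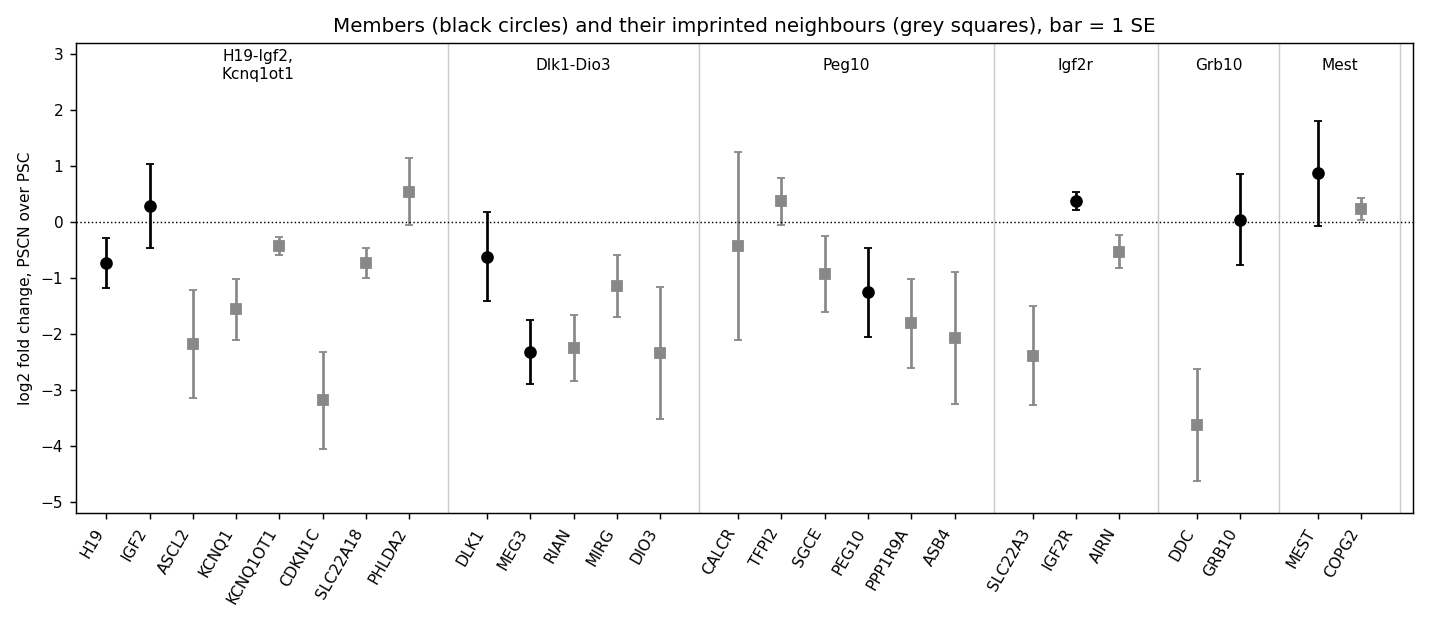
Log2 fold changes of PSCN over PSC (edgeR, bar 1 SE) for the members other than PLAGL1 and PEG3 (black circles), grouped by domain. Grey squares are imprinted neighbours from the gene lists that passed the filter on low counts. MEG3 and RIAN sit at -2.32 and -2.25, while GRB10 and MEST lie near or above 0 with the widest bars among the members.

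The summed markers of ciliated, club, endothelial and alveolar type 2 cells were, like MEG3, lowest of PSC in library 3. MEG3 and the alveolar type 2 sum were highest of PSC in library 2, the other sums in library 1. The 8 ciliated cell markers had 8 negative fold changes and summed to 13.4 to 47.0 CPM in PSCN and to 726, 304 and 27.2 CPM in PSC libraries 1 to 3. The 6 measured club cell markers, of airway secretory cells, had 6 negative fold changes and summed to 571 to 1956 CPM in PSCN and to 27350, 18323 and 3744 CPM in PSC libraries 1 to 3. Among them the mucin MUC5B went the other way within PSC, with 36.3, 3.60 and 91.8 CPM in PSCN and 252, 343 and 939 CPM in PSC, highest in library 3. The 8 endothelial markers had 7 negative fold changes and summed to 746, 628 and 432 CPM in PSCN libraries 1 to 3 and to 1700, 982 and 307 CPM in PSC libraries 1 to 3. The 7 alveolar type 2 markers had 7 negative fold changes, with 2172 to 2882 CPM in PSCN and 6948, 12500 and 1517 CPM in PSC libraries 1 to 3. No marker of these lists was at 0 in all libraries, and with edgeR 0 passed the test over all genes. At an unadjusted p under 0.05, 8 ciliated, 6 club, 0 endothelial and 3 alveolar type 2 markers were lower in PSCN. Over all genes tested the share lower was 12.2%. In the ciliated, endothelial and alveolar type 2 sums PSC library 3 lay within or below the range of PSCN. In the club cell sum, as for MEG3, it lay above that range. Other marker sums were mixed within PSC. Smooth muscle and pericyte markers gave 1053, 183 and 197 CPM in PSC libraries 1 to 3. Leukocyte markers gave 251, 387 and 613 CPM there, highest in library 3 like the fibroblast sum. The neuroendocrine and adipocyte sums were lowest of PSC in library 3, and the skeletal muscle sum in library 2. The part of any of these cell types in the MEG3 difference was not tested.

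**Figure D4:**
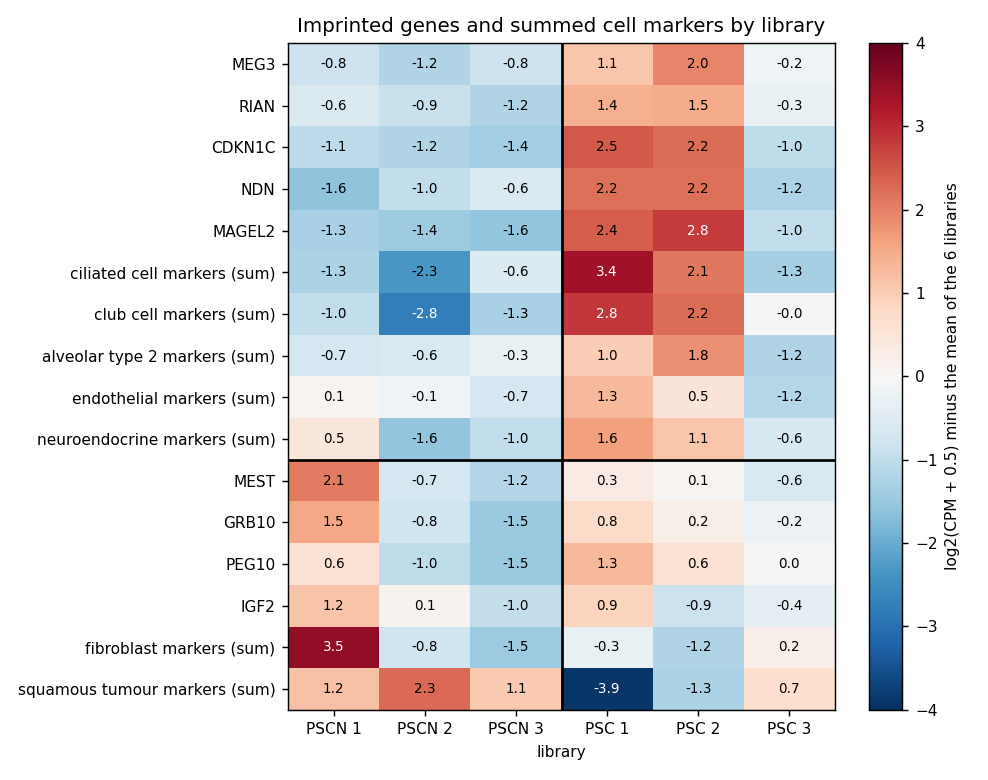
Log2 of CPM plus 0.5, minus the mean of the 6 libraries, for imprinted genes and for summed cell markers in each library (columns), with MEG3 and 4 imprinted genes above the line beside markers of normal lung, and MEST, GRB10, PEG10 and IGF2 below it beside fibroblast and squamous markers. The rows were picked after their values were seen: MEG3, RIAN, CDKN1C, NDN and MAGEL2 are high in PSC libraries 1 and 2 and low elsewhere, and MEST, GRB10 and the fibroblast sum are highest in PSCN library 1.

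PLAGL1 and PEG3, both zinc finger proteins read from the paternal chromosome, differed by less than the spread within the groups. PLAGL1, a regulator of a network of imprinted genes that can halt the cell cycle, measured 84.4, 26.7 and 100 CPM in PSCN libraries 1 to 3 against 37.7, 58.7 and 63.5 CPM in PSC libraries 1 to 3. PSCN held the 2 highest libraries and also the lowest, and the log2 fold change was 0.40 (SE 0.50, edgeR adjusted p = 0.649). PEG3, a growth and apoptosis regulator, measured 14.5, 10.9 and 13.4 CPM in PSCN and 27.2, 8.95 and 5.39 CPM in PSC. The PSCN libraries lay within the wider range of PSC, with a log2 fold change of -0.10 (SE 0.60, edgeR adjusted p = 0.933). The log2 fold change was 0.85 without PSC library 1. It was -1.07 with sex as a covariate, which sets PSCN against PSC library 1 alone. The neighbours of PEG3 on chromosome 7, ZIM1 and USP29, were below 0.5 CPM in all libraries and did not pass the filter. PLAGL1 is ENSMUSG00000019817.18 at chr10:13060504-13131694, and PEG3 is ENSMUSG00000002265.16 at chr7:6703892-6730431.

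Over the 6 libraries the members did not move as a block. Of their 45 pairs, 26 had a positive and 19 a negative correlation of log2 CPM. The highest was between GRB10 and MEST (Pearson r = 0.945), followed by GRB10 and PEG10 (r = 0.884). The lowest was between IGF2R and MEG3 (r = -0.916). The neighbours DLK1 and MEG3 gave r = 0.270, and H19 and IGF2 r = 0.534. Among 14501 other annotated genes with a mean of at least 1 CPM, the patterns most like that of MEG3 were those of ATP6V1C2, a proton pump subunit (r = 0.998), and the ubiquitin protease USP49 (r = 0.997). FAM160A1 and TBC1D2 were nearest to IGF2R (r = 0.999 and 0.998), and GRIP2 and PHTF1OS to H19 (r = 0.996 and 0.975). These points share the same 6 libraries, with the same depth and cell mix, and are given as a description.

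Other imprinted genes had mostly negative fold changes, and none passed the test. Of 45 listed, 37 passed the filter on low counts, 8 had positive and 29 negative fold changes, and the median log2 fold change was -0.82 against -0.01 over all genes. With edgeR 0 were called in either direction; at an unadjusted p under 0.05 there were 13 lower and 1 higher, against 12.2% and 9.48% of all genes tested. CDKN1C, the maternally expressed cell cycle inhibitor 792 kb from IGF2, measured 4.94, 4.40 and 3.81 CPM in PSCN libraries 1 to 3 against 62.1, 52.3 and 5.09 CPM in PSC libraries 1 to 3, with a log2 fold change of -3.18 (SE 0.87, edgeR adjusted p = 0.189). MAGEL2, a ubiquitin ligase regulator of the Prader-Willi region, had 7, 3 and 0 counts in PSCN and 546, 737 and 18 counts in PSC. NDN, its growth-restraining neighbour and chosen here after its values were seen, stood at 2.60 to 5.90 CPM in PSCN against 42.7, 43.1 and 3.55 CPM in PSC libraries 1 to 3. In these 3 genes PSC libraries 1 and 2 were high and PSC library 3 lay near PSCN; PSC library 3 was also the lowest of PSC for MEG3 and for the summed ciliated and club cell markers. GNAS, a signalling G protein subunit of a large imprinted locus, was nearly level, at 580 ± 22.9 CPM in PSCN and 539 ± 34.1 CPM in PSC (SD, n = 3 each).

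Around IGF2, none of the ligands, receptors and binding proteins passed the test. On the log2 fold change scale IGF1 gave -0.42 (SE 0.40), the signalling receptor IGF1R -0.26 (SE 0.30) and the insulin receptor INSR -0.27 (SE 0.16). Of the 25 genes of the IGF and insulin receptor list 22 were tested, with 11 positive and 11 negative fold changes. With edgeR 0 were called, and 1 higher and 4 lower had an unadjusted p under 0.05, against 9.48% and 12.2% of all genes tested. The median log2 fold change was -0.12, against -0.01 over all genes. IGFBP2, which binds IGF2 with preference, measured 306, 340 and 598 CPM in PSCN and 45.6, 62.1 and 148 CPM in PSC, a log2 fold change of 2.28 (SE 0.53, edgeR adjusted p = 0.182). IGFBP5, common in stroma, measured 434, 112 and 141 CPM in PSCN and 897, 1167 and 819 CPM in PSC (log2 fold change -2.07, SE 0.57). IGFBP6, the binding protein most selective for IGF2, measured 1.98, 2.49 and 2.48 CPM in PSCN and 44.1, 16.9 and 7.18 CPM in PSC (log2 fold change -3.29, SE 0.69, edgeR adjusted p = 0.175). For each of these 3 the groups did not overlap. They were the only such genes among the 22 tested, 1 higher and 2 lower, against 28.6% of all genes tested. IGFBP3, the main carrier of IGFs in blood, measured 767, 558 and 364 CPM in PSCN and 113, 74.4 and 380 CPM in PSC, a log2 fold change of 1.57 (SE 0.67) with groups that overlapped. The orphan insulin receptor relative INSRR, with a log2 fold change of -4.30 (SE 1.43), was at most 0.321 CPM in PSCN and reached 8.30, 2.30 and 0.136 CPM in PSC libraries 1 to 3.

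**Figure D5:**
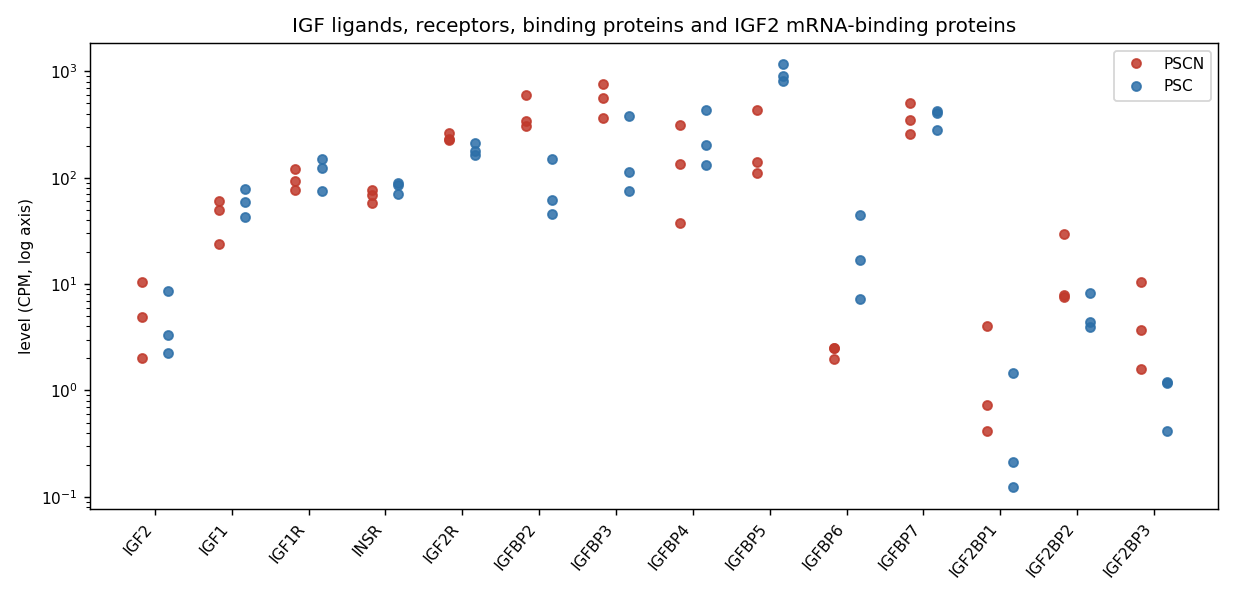
Levels in CPM, on a log axis, of IGF ligands, receptors, binding proteins and IGF2 mRNA-binding proteins in the 3 PSCN libraries (red) and the 3 PSC libraries (blue). IGFBP2 and IGF2BP3 are higher and IGFBP5 and IGFBP6 lower in all PSCN libraries than in all PSC libraries, while IGF2, IGF1, IGF1R and INSR overlap.

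Regulators of IGF2 and oncofetal RNA-binding proteins, listed together, had mostly positive fold changes, 7 of 9 tested against 49.1% of all genes. Their median log2 fold change was 0.65. With edgeR 0 were called, and 2 were higher at an unadjusted p under 0.05, against 9.48% of all genes tested. IGF2BP3, an oncofetal protein that binds IGF2 mRNA, measured 3.73, 1.61 and 10.5 CPM in PSCN and 0.418, 1.21 and 1.19 CPM in PSC, a log2 fold change of 2.49 (SE 0.81, edgeR adjusted p = 0.196). Its relatives IGF2BP1 and IGF2BP2 had log2 fold changes of 1.52 (SE 1.25) and 1.44 (SE 0.65), with groups that overlapped. The chromatin protein HMGA1 measured 48.7, 103 and 47.9 CPM in PSCN and 23.7, 21.4 and 47.0 CPM in PSC. ZBED6, a repressor of IGF2, gave a log2 fold change of -1.25 (SE 0.86) from 3.91, 48.7 and 11.9 CPM in PSCN and 51.9, 64.3 and 37.7 CPM in PSC.

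Factors that maintain imprints were split in direction. Of 17 tested, 8 had positive and 9 negative fold changes, with a median log2 fold change near that of all genes. With edgeR 0 were called, and 1 higher and 2 lower had an unadjusted p under 0.05, against 9.48% and 12.2% of all genes tested. On the log2 fold change scale the linker histone HIST1H1C gave 0.67 (SE 0.20) and UHRF1, which guides the maintenance DNA methyltransferase, 0.87 (SE 0.36). The chromatin proteins ARID4A and ARID4B, which act on imprints in mice, had log2 fold changes of -0.38 (SE 0.15) and -0.53 (SE 0.21). Among 11 Notch genes listed as partners of DLK1, 10 had positive fold changes, against 49.1% of all genes. With edgeR 0 were called, and 0 had an unadjusted p under 0.05, against 21.6% of all genes tested. JAG2, a Notch ligand, gave 0.53 (SE 0.22), JAG1 0.34 (SE 0.27), the receptor NOTCH3 0.34 (SE 0.22) and the Notch target HEY1 -0.87 (SE 0.43) on the log2 fold change scale.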

How the data were processed

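Total RNA of 6 tumour biopsies was sequenced as stranded paired-end libraries, per the labels' protocols. Trimmomatic, HISAT2, StringTie, DESeq2 and the build GRCm38 are named, with no versions of the tools, in the submitters' processing notes. The authors deposited estimated counts, as whole numbers, with 1 row for each symbol. A second deposited table gives, per the file headers, a mean signal, log2 fold changes with errors, a Wald score and p-values, of which those of MEG3 are quoted. Column letters and numbers were read as group and replicate, which no label states.

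Counts were filtered with filterByExpr, scaled by TMM and tested in R 4.3.3 with edgeR 4.0.16 (quasi-likelihood), with a threshold of 0.05 on the Benjamini-Hochberg adjusted p. Standard errors were derived from the F statistic and the log2 fold change. Alternatives were RLE and upper quartile factors, DESeq2 1.42.0, limma-voom (limma 3.58.1) with and without sample weights, leaving the low counts in, asking for 1 CPM in 3 or more libraries, each library left out, a replicate block, and sex, read from XIST and DDX3Y, as a covariate. The fit with sex compares PSCN with PSC library 1 alone, the only PSC library of the same sex. With 3 libraries a group the smallest two-sided p of an exact permutation test is 0.1, so none was run. The fits were tested on simulated data. Gene positions and exons came from GENCODE M21, promoters from RefSeq (GRCm38.p6). The reads carry no molecular identifiers, so counts are not counts of molecules.

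Members and lists were chosen with earlier results of these data known. Named were all members, up to 4 genes with the smallest p of each list, IGF1, IGF1R, INSR, IGF2BP1 to IGF2BP3, CDKN1C and GNAS, and the 2 nearest patterns of the 3 members with the smallest p. Other neighbours (AIRN, SGCE, COPG2, MIRG, DIO3, NDN, ZIM1 and USP29), IGFBP3 and MUC5B were named after their values were seen.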

Additional observations from a re-analysis of the deposited data

How the results depend on the processing

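Of 148 values of the 10 members under the alternatives, 127 kept their direction and their side of the threshold, 18 changed sign and 3, all of MEG3, passed the threshold. Sign changes came from GRB10, PEG3, MEST, IGF2 and DLK1. The log2 fold change of GRB10 was -0.040 with upper quartile factors, -0.87 with limma-voom with quality weights, -0.52 without these weights and -0.41 with sex as a covariate, and ran from -1.43 to 0.46 leaving out each library. PEG3 gave 0.27 with limma-voom with quality weights, 0.23 without them, and -0.47 to 0.85 leaving out each library. With sex as a covariate PEG3 kept its sign, at -1.07. MEST gave -0.36 with limma-voom with quality weights and -0.96 to 1.31 leaving out each library. With sex as a covariate, where PSCN was set against PSC library 1 alone, IGF2 gave -0.57 and DLK1 1.49. Leaving out each library they ran from -0.44 to 1.06 and from -1.09 to 0.58. The cause was not tested.

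edgeR called 1 gene higher and 0 lower over all genes (2010 and 2579 at an unadjusted p under 0.05). DESeq2 called 1115 and 1830, limma-voom with quality weights 1788 and 1238, limma-voom without weights 0 higher, the filter of 1 CPM in at least 3 libraries 3 higher, and sex as a covariate 0 higher. Leaving out each library gave 0 to 751 higher and 0 to 1195 lower, the most without PSC library 3. Members called lower were 1 with DESeq2, 1 with limma-voom with quality weights and 0 to 1 leaving out each library. Members that did not overlap between the groups numbered 2 to 5 leaving out each library. The median log2 fold change of the members ran from -0.63 to 0.25 leaving out each library. With the replicate block edgeR called 0 genes higher, and PEG3 and GRB10 gave 0.23 and -0.54. Same-numbered libraries shared deviations from their group means with correlations of 0.186, -0.0535 and 0.0158, so the numbers were not taken as pairs. The filter of 1 CPM left H19 and DLK1 untested. The fewest counts, where counting error weighs most, were those of H19 and DLK1 (13 to 123) and of PEG10 in PSCN libraries 2 and 3 (68 and 45). Counting error was not separated from the spread between libraries.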
